A study of Saccharomyces cerevisiae with 6 samples.

Results

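The yeast wall genes examined here are 10 genes for glucan synthesis, glucan remodelling and wall mannoproteins: FKS1, GSC2, GAS1, CRH1, SED1, CWP1, CWP2, SVS1, PIR1 and HSP150. They were chosen by name, through their systematic identifiers, from the 6692 gene rows of the deposited count files, and all 10 were found. RNA abundance was measured in 3 libraries from Rio1-depleted cells and 3 control libraries of budding yeast, Saccharomyces cerevisiae, strain background W303. Both groups are labelled with the same genotype, MATa with RIO1-AID and PADH1-OsTIR1 and mutant alleles of the marker genes URA3, TRP1, ADE2, CAN1, LEU2 and HIS3. RIO1-AID is the essential kinase gene fused to an auxin-inducible degron, and OsTIR1 is the plant F-box protein, driven by the ADH1 promoter, that targets the fusion for degradation when auxin is present. Cells grew exponentially in YPD, a rich glucose medium, at 23 °C. The depleted group received 500 µM auxin for 1 h and the control group none. The controls carry the degron too, although their titles call them wild type. No library combined auxin with intact Rio1, so effects of auxin and of Rio1 loss cannot be told apart.

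The yeast wall is a mesh of beta-glucan chains, with some chitin, that holds an outer layer of heavily mannosylated proteins. A plasma membrane synthase extrudes glucan, transglycosylases at the cell surface lengthen and join the chains, and wall proteins are attached either through the remnant of a GPI anchor or, for the PIR proteins (proteins with internal repeats), directly to glucan. Damage to the wall is sensed through the cell wall integrity pathway, in which Rho1, protein kinase C and the MAP kinase Slt2 act on glucan synthesis and on transcription.

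Sequence upstream of 5 of the genes is shown for those with a searched motif in this window and for the glucan synthase pair described next. Each line gives the 100 bases from 250 to 151 before the start codon, 5′ to 3′ on the gene's strand, from RefSeq assembly R64, the assembly known as sacCer3. Capitals mark a motif, with N for any base: CTA and TAG separated by 4 bases for the wall integrity factor Rlm1, CNCGAAA for SBF (the Swi4-Swi6 factor of late G1) and AGGGG, the stress response element of Msn2 and Msn4. Both strands were searched.
SVS1 (chrXVI:242851-242950, minus strand): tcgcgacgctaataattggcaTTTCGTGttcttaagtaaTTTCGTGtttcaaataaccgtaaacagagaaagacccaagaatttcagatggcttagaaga
SED1 (chrIV:600543-600642, plus strand): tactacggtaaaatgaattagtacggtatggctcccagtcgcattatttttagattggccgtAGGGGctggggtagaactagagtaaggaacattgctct
HSP150 (chrX:120199-120298, plus strand): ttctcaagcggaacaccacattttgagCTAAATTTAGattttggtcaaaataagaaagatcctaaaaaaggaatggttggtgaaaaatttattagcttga
FKS1 (chrXII:809747-809846, plus strand): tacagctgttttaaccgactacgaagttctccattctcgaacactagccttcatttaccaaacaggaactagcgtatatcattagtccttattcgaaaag
GSC2 (chrVII:548014-548113, plus strand): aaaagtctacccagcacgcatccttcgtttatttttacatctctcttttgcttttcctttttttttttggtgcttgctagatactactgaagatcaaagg
SVS1 had 2 SBF matches in the 250 bases before its start codon, where 12.5% of 6007 yeast genes had at least 1. HSP150 had 2 Rlm1 matches there, of which the second lies nearer the start codon and is not printed, against 4.54% of genes with a match. SED1 and PIR1 each had 1 stress response element, against 18.8% of genes. MBF (ACGCGT), Crz1 (GNGGCNCA) and the Hsf1 element had no match in these 250 bases of any of the 10 genes. A match is a description of letters in R64, not evidence of binding.

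Gene counts per library ran from 683896 to 1671136, and the 10 genes together had between 7011 and 19187 reads in a library. The summary row for non-unique alignments, which the gene counts leave out, made up 45.2% to 65.9% of a file's total. It may count a read at each of its alignments, so the share of reads left out is not known. Depleted library 2 and control library 1 held 4.12% and 1.48% of their gene counts in the YLR154 rows, and the other libraries 0.059% to 0.197%. The YLR154 rows are all rows whose identifier starts with YLR154, in or next to the rDNA. No libraries were identical, and pairs within a group differed beyond sampling noise (chi-square per degree of freedom 2.53 to 10.7). RIO1 mRNA stood at 62.9 to 66.3 CPM in controls and 93.7 to 129.7 CPM in depleted libraries. Since the degron removes protein, mRNA is no check of the depletion. The labelled mating type was checked on 6 a-cell and 4 alpha-cell genes. The a-cell genes STE2 (the alpha-factor receptor), STE6, MFA2, BAR1 and AGA2 were tested, and STE2 stood at 326 to 428 CPM in every library. MFA1, with 2 to 16 reads, was not tested. Of the 5, BAR1 was called lower (-0.38, edgeR adjusted p = 0.0395), a call kept only without depleted library 1 among the 6 omissions and absent by DESeq2 and with library totals. Of the alpha-cell genes, MF(ALPHA)1, MF(ALPHA)2 and STE3 (the a-factor receptor) had 0 to 8 reads and were not tested. SAG1, the alpha-agglutinin gene, stood at 13.4 to 29.2 CPM in controls and 35.5 to 39.2 CPM in depleted libraries, and was called higher (0.83, edgeR adjusted p = 0.0395), a call kept only without control library 2 among the 6 omissions and absent by DESeq2.

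Of the 10 wall genes, 5 fell after Rio1 depletion (SVS1, FKS1, GAS1, SED1 and CWP2), 1 rose (GSC2) and 4 were not called (CRH1, CWP1, HSP150 and PIR1). All 10 passed the filter on low counts. In a whole culture, fewer cells expressing a gene and less of its RNA per cell cannot be told apart. The changes were moderate, from a 1.95-fold fall of SVS1 to a 1.48-fold rise of GSC2, and the median log2 fold change was -0.42, beside 0.01 over all 5195 genes tested. A gene is called at a Benjamini-Hochberg adjusted p under 0.05 in edgeR's quasi-likelihood test over all tested genes. By that rule 28.3% of all tested genes were called, 14.1% lower and 14.1% higher. The 10 genes were chosen with earlier results of these data known, so their counts and median are a description only. CPM is the count divided by the TMM-scaled library size, times 1e6, and log2 fold changes are depleted minus control. Values per library are listed in the order of libraries 1 to 3. The groups did not overlap in CPM for 5 of the 10, 4 lower and 1 higher, where 40.6% of all tested genes were separated, 20.0% lower and 20.6% higher.

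These directions hold for TMM scaling. If libraries were scaled by their totals alone, the log2 fold changes of all genes moved up, by 0.31 at the median, and 1748 genes were called higher and 313 lower, in place of 734 and 735. Then SVS1 and FKS1 were lower, GSC2 and PIR1 higher, and SED1 (edgeR adjusted p = 0.0520), GAS1 (0.123) and CWP2 (0.223) were not called. No wall gene was called when edgeR's glmTreat tested for a change beyond 1.5-fold, where 1 had an unadjusted p under 0.05. DESeq2, which asks for any change, called the same 6 genes as the quasi-likelihood test. Summed over the 10 genes and not rescaled, their share of gene counts was 1.10% ± 0.049 in control and 1.07% ± 0.070 in depleted libraries (SD, n = 3 each), with overlapping ranges.

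**Figure D1:**
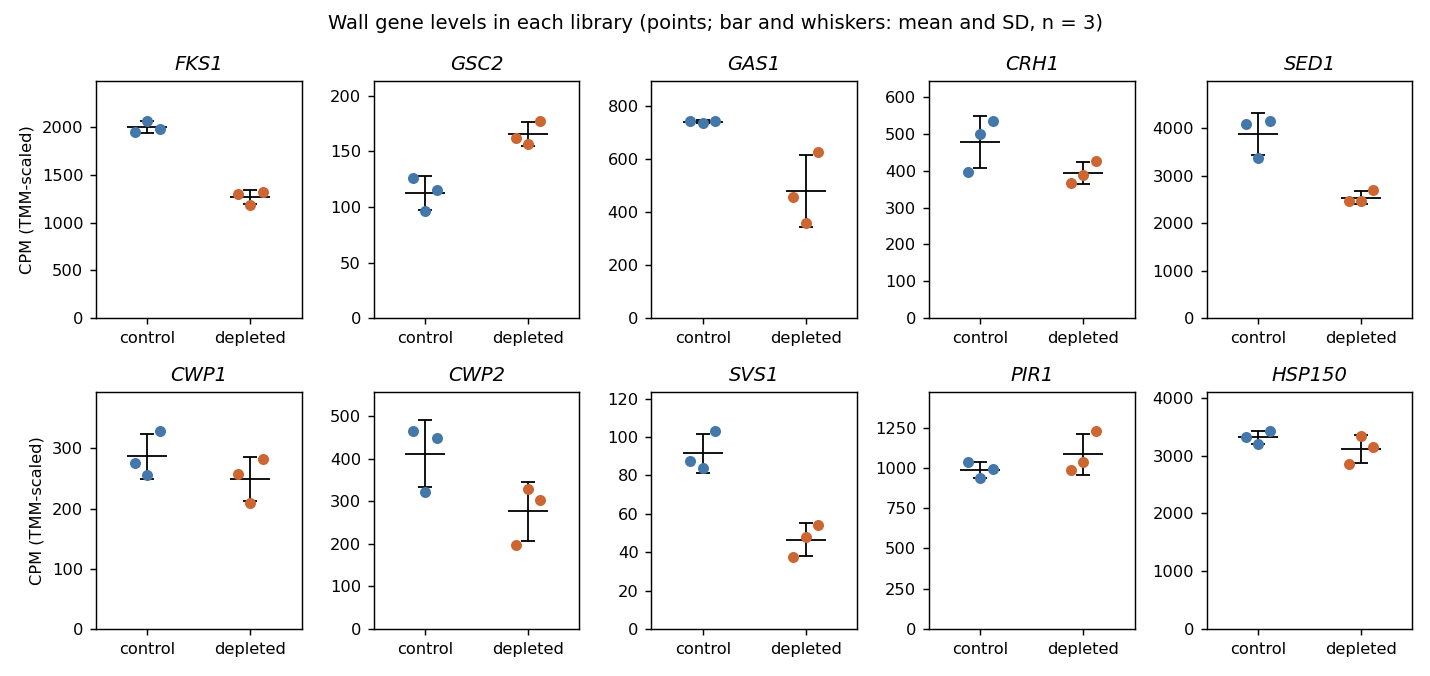
Level of each of the 10 wall genes in CPM (TMM-scaled, linear axis from 0, own scale per panel) in the 3 control and 3 depleted libraries, as points with mean and SD. FKS1, GAS1, SED1 and SVS1 have every depleted library below every control library, and GSC2 has every depleted library above.

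Glucan synthase showed opposite changes in its 2 catalytic subunit genes. FKS1 (YLR342W, chromosome XII, 809997 to 815627, R64), the subunit used in growth on glucose, stood at 1946, 2066 and 1982 CPM in the controls and at 1303, 1179 and 1319 CPM after depletion. Every depleted library was below every control library, and the spread within each group was small. FKS1 fell 1.58-fold, a log2 fold change of -0.66 ± 0.12 (SE, n = 3 per group; edgeR adjusted p = 0.000257).

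GSC2 (YGR032W, chromosome VII, 548264 to 553951), also called FKS2, encodes the alternative subunit, which is known to be induced by stress, poor carbon sources and calcineurin signalling. It stood at 125.8, 96.4 and 115.0 CPM in the controls and at 162, 157 and 178 CPM after depletion. The groups did not overlap. GSC2 rose 1.48-fold, a log2 fold change of 0.57 ± 0.14 (SE; edgeR adjusted p = 0.00438). When any 1 library was left out, the value ran from 0.45 to 0.62. The call was kept each time, but narrowly without control library 2 (edgeR adjusted p = 0.0482).

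The ratio of FKS1 to GSC2 reads within a library does not depend on scaling. It was 15.5, 21.4 and 17.2 in control libraries 1 to 3 and 8.04, 7.52 and 7.43 in depleted libraries 1 to 3. FKS1 thus still had more reads than GSC2 in every library, and the depleted ratios lay close together and below all controls. The log2 ratio went from 4.16 ± 0.24 to 2.94 ± 0.061 (SD, n = 3 each), a 2.33-fold fall, with an exact two-sided permutation p of 0.1, the smallest that 3 against 3 libraries allow. The coding sequences are 80.8% identical over 5611 aligned bases and share no stretch of 50 bases, a length chosen because the read length is not given in the sources used here.

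**Figure D2:**
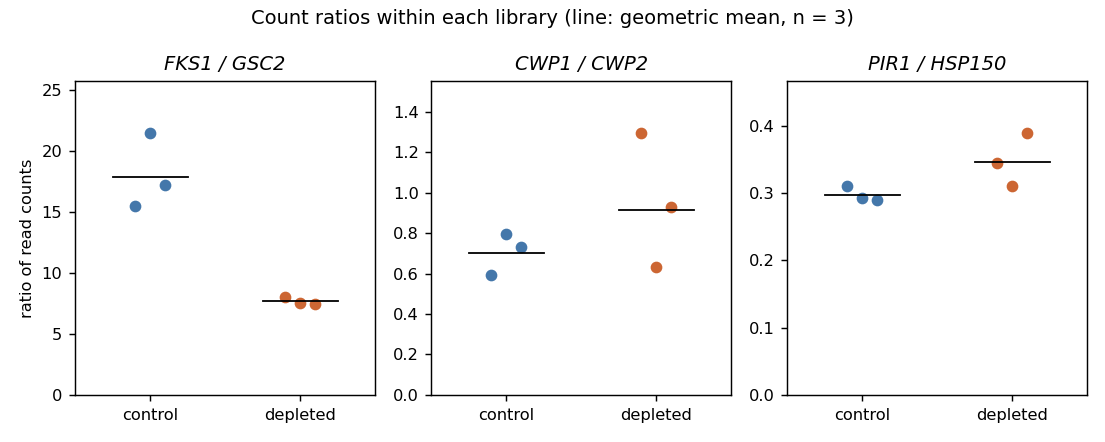
Ratio of read counts of FKS1 to GSC2, CWP1 to CWP2 and PIR1 to HSP150 in each library (points; line, geometric mean of 3; linear axes from 0). The FKS1 to GSC2 ratios are 15.5 to 21.4 in controls and 7.43 to 8.04 in depleted libraries, while the groups overlap for the other 2 pairs.

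Of the 2 transglycosylase genes, GAS1 fell and CRH1 was not called. GAS1 (YMR307W, chromosome XIII, 887003 to 888682) encodes a GPI-anchored transglycosylase that lengthens beta-glucan at the cell surface. Its levels were 744, 734 and 741 CPM in the controls and 455, 357 and 624 CPM after depletion. The controls were nearly equal, whereas the depleted libraries spread widely, with depleted library 3 nearest the controls. Its log2 fold change was -0.63 ± 0.15 (SE; edgeR adjusted p = 0.00465) and ran from -0.87 to -0.45 when any 1 library was left out. It kept its call in each of those 6 fits.

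CRH1 (YGR189C, chromosome VII, 876669 to 878192), a transglycosylase that links chitin to glucan, stood at 398, 499 and 536 CPM in the controls and at 366, 388 and 426 CPM after depletion. The groups overlapped through control library 1. Its log2 fold change was -0.28 ± 0.12 (SE; 95% interval -0.54 to -0.025; edgeR adjusted p = 0.0969). Without control library 1 the value was -0.42 (edgeR adjusted p = 0.0284) and without depleted library 3 it was -0.35 (0.0406), so the call rests on single libraries. Its sign turned with library totals only (0.028).

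The GPI-anchored wall protein genes SED1 and CWP2 fell and CWP1 was not called. SED1 (YDR077W, chromosome IV, 600793 to 601809), a major structural mannoprotein, stood at 4091, 3373 and 4159 CPM in the controls and at 2461, 2458 and 2698 CPM after depletion. All depleted libraries lay below all controls. The fall was 1.53-fold, or -0.61 ± 0.11 on the log2 scale (SE; edgeR adjusted p = 0.000505).

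CWP2 and CWP1 are neighbours on chromosome XI with 1600 bases between their coding regions, and both encode mannoproteins linked to beta-glucan. CWP2 (YKL096W-A, 259253 to 259531) stood at 465, 323 and 449 CPM in the controls and at 198, 330 and 303 CPM after depletion. The groups overlapped, since control library 2 was below depleted library 2. The log2 fold change was -0.56 ± 0.16 (SE; edgeR adjusted p = 0.0134). The call was lost without depleted library 1 (edgeR adjusted p = 0.0587), control library 1 (0.0717) or control library 3 (0.0638), and the value without depleted library 1 was -0.38.

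CWP1 (YKL096W, 261132 to 261851) stood at 276, 256 and 328 CPM in the controls and at 257, 209 and 282 CPM after depletion. The ranges overlapped, with depleted library 2 below all controls and control library 3 above all depleted libraries. Its log2 fold change was -0.21 ± 0.13 (SE; 95% interval -0.48 to 0.053; edgeR adjusted p = 0.234), and it was 0.10 with library totals only. The ratio of CWP1 to CWP2 reads was 0.594, 0.795 and 0.731 in controls and 1.29, 0.633 and 0.932 in depleted libraries 1 to 3. The groups overlapped (exact two-sided permutation p = 0.3), so a difference in response between the neighbours was not shown.

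SVS1 (YPL163C, chromosome XVI, 241918 to 242700), a wall and vacuolar protein gene needed for normal vanadate resistance, fell the most of the 10. It stood at 87.2, 84.0 and 103.0 CPM in the controls and at 37.6, 47.9 and 54.2 CPM after depletion. The highest depleted library was well below the lowest control. These levels rest on 61 to 154 reads in control and 29 to 55 reads in depleted libraries. SVS1 fell 1.95-fold, a log2 fold change of -0.97 ± 0.19 (SE; edgeR adjusted p = 0.000681), with a range of -1.09 to -0.86 when 1 library was left out, and it was -0.66 with library totals only (edgeR adjusted p = 0.0101).

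Neither PIR gene was called. PIR1 (YKL164C, chromosome XI, 141794 to 142819) stood at 1035, 939 and 994 CPM in the controls and at 988, 1039 and 1229 CPM after depletion. The 2 lower depleted libraries were near the controls and depleted library 3 was above them. The log2 fold change was 0.13 ± 0.12 (SE; 95% interval -0.12 to 0.39; edgeR adjusted p = 0.460), and 0.45 with library totals only (edgeR adjusted p = 0.00776).

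HSP150 (YJL159W, chromosome X, 120449 to 121690), also called PIR2 and known to be induced by heat, stood at 3328, 3204 and 3424 CPM in the controls and at 2864, 3341 and 3160 CPM after depletion. The ranges overlapped. Its log2 fold change was -0.09 ± 0.11 (SE; 95% interval -0.32 to 0.14; edgeR adjusted p = 0.590), with the sign turned under library totals only (0.23). At these depths the intervals leave room for a rise of PIR1 by up to 0.39 and a fall of HSP150 by up to 0.32 on the log2 scale. The ratio of PIR1 to HSP150 reads was 0.290 to 0.311 in controls and 0.311 to 0.389 in depleted libraries, overlapping by a narrow margin (exact two-sided permutation p = 0.2).

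**Figure D3:**
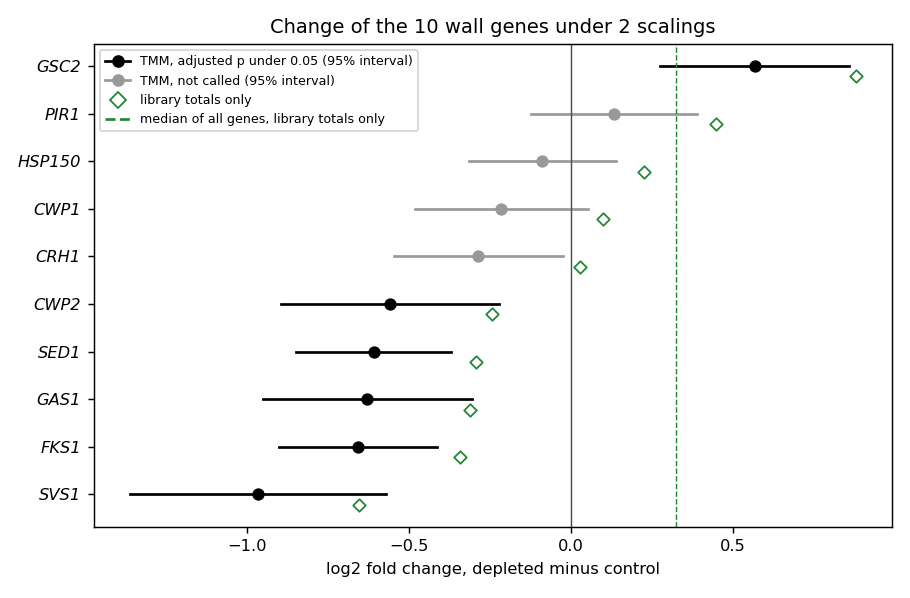
Log2 fold change of the 10 wall genes, depleted minus control, with TMM scaling (circles with 95% interval; black, adjusted p under 0.05; grey, not called) and with library totals only (green diamonds; dashed line, median of all genes at 0.32). SVS1 is lowest at -0.97 and GSC2 highest at 0.57, and the order of the genes is the same under both scalings.

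Repeats inside the wall protein genes can limit which reads were counted, because reads with more than 1 alignment are absent. In R64, 7.38% of the 50-base stretches of HSP150, 7.16% of those of PIR1 and 4.75% of those of SED1 occur more than once in the genome, and none of those of the other 7 genes do. Over all genes, 411 of 6007 exceeded 5%. Shown are a repeat within HSP150, a stretch that HSP150 shares with CIS3 (another PIR protein gene), a stretch that PIR1 shares with its neighbour PIR3 and a repeat within SED1, each 5′ to 3′ on the gene's strand.
HSP150 repeat (chrX:120902-120981, plus strand): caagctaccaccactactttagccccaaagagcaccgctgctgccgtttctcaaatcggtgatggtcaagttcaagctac
HSP150 with CIS3 (chrX:121451-121515, plus strand): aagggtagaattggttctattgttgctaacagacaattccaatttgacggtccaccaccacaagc
PIR1 with PIR3 (chrXI:142701-142781, minus strand): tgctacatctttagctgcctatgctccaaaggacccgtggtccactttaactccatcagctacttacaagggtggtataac
SED1 repeat (chrIV:601318-601388, plus strand): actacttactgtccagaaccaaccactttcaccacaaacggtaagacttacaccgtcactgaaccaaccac
Repeat numbers in W303 may differ from R64. Levels of these 3 genes may be understated, to an extent that depends on the read length and was not measured here. No R64 gene overlaps any of the 10 on either strand, although 684 rows of the files are not in R64 and were not checked.

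Levels can be compared between the 10 genes only per length. In RPKM, the CPM divided by the coding length in kilobases, the control means in falling order were 3809 ± 428 for SED1, 2672 ± 88.6 for HSP150, 1478 ± 279 for CWP2 and 964 ± 47.0 for PIR1 (SD, n = 3). GAS1 (440 ± 2.93), CWP1 (399 ± 51.6), FKS1 (355 ± 10.9) and CRH1 (313 ± 46.9) followed, and in that stretch each neighbouring pair overlapped between libraries. SVS1 (117 ± 13.0) and GSC2 (19.8 ± 2.62) were lowest, each separate from the gene above. The median over 5122 tested genes with a coding length was 54.5 RPKM, so GSC2 alone of the 10 was below it. GSC2 reached 29.1 ± 1.90 RPKM in depleted cells, still below FKS1 at 225 ± 13.7. HSP150 and SED1, well apart in controls, came to 2513 ± 194 and 2497 ± 135 RPKM in depleted libraries, where their ranges overlapped.

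The other genes of wall synthesis and wall signalling on 11 lists were examined for the same contrast. Of 164 such genes besides the 10, 153 were tested. Of these, 17 rose and 38 fell, beside 14.1% of all tested genes in each direction, and the median log2 fold change was -0.17. Lists overlap in part, their counts leave out the 10 genes, and genes near silent in controls could be tested only if they rose. The lists too were chosen with earlier results of these data known. With library totals only, 37 of the 153 were higher and 4 lower, and the median was 0.15.

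Of the 3 other glucan synthase genes, 1 rose and 1 fell, beside 14.1% of all tested genes in each direction. FKS3, a relative of FKS1 that acts in spore wall formation, rose from 42.0 ± 5.75 to 91.4 ± 10.8 CPM (SD, n = 3; log2 fold change 1.14, edgeR adjusted p = 0.000142). SMI1, a regulator of glucan synthesis also called KNR4, fell by 0.62 on the log2 scale. FKS3 kept its call in all 15 alternative fits, and SMI1 lost it with library totals only and against 1.5-fold. Of 10 genes for the branching beta-1,6-glucan, 2 fell and none rose, where 28.3% of all tested genes were called. SKN1 fell by 0.61 and the glucosidase gene CWH41 by 0.61. SKN1 lost its call without depleted library 1 or 2 or control library 3. By DESeq2 1 of the 10 fell and none rose, 4 were lower and none higher at an unadjusted p under 0.05, and with library totals only 1 rose and none fell.

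With TMM scaling, glucan remodelling genes, the relatives and partners of GAS1 and CRH1, fell where called in most cases. Of 18 tested, 9 fell and 2 rose, beside 14.1% of all tested genes in each direction. The median was -0.33, and by DESeq2 7 fell and 1 rose. The SUN family genes SIM1 and SUN4, which act in septation, fell by 0.93 and 0.75, and the glucanase-like gene SCW10 by 0.62. GAS2, a GAS1 relative used in spore wall assembly, rose from 11.9 ± 4.71 to 56.2 ± 2.19 CPM (SD, n = 3; log2 fold change 2.33, edgeR adjusted p = 4.1e-06). With 12 reads in each control library, GAS2 passed the filter on low counts only through the depleted libraries, so a fall could not have been called. Between 4 and 10 genes were lower when 1 library was left out, with 4 without depleted library 1 or 2 or control library 1 or 3. With library totals only 2 were higher and 2 lower, with a median of -0.01.

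Among 17 other tested GPI wall protein genes, 6 rose and 3 fell, with a median of 0.46, beside 14.1% of all tested genes in each direction. The flocculin gene FLO1 rose by 1.89, the stress-induced SPI1 by 1.17 and the cold-shock mannoprotein gene TIP1 by 1.09 on the log2 scale, and FIT2, which helps retain iron-siderophores in the wall, fell by 1.29. FLO1 and SPI1 had a mean of 12.8 and 12.5 reads per library, and 53.8% of FLO1's 50-base stretches are repeated in R64. SPI1 lost its call without depleted library 1 or 3 or control library 2 or 3, and DESeq2 called 2 of the 17 higher and 3 lower. SAG1, named above, is 1 of the 6 that rose. The flocculin genes FLO5 (0.66, edgeR adjusted p = 0.0465) and FLO9 (1.04, a mean of 17.3 reads), named after their values were seen, are also among them. Repeated stretches of FLO5 and FLO9 are not given here. FLO1, SPI1 and FLO9, with 3 to 11, 6 to 10 and 6 to 19 control reads, passed the filter on low counts only through the depleted libraries. At these control levels a fall could not have been called, which limits the counts and the median of this list. Without any 1 library 3 or 4 of the list were higher, 4 of them without depleted library 1, and 1 to 3 lower, with 1 lower without control library 3. Scaling by library totals gave 9 higher and 1 lower, with a median of 0.77. Another 6 genes on the list were too low to be tested, among them the TIR genes and DAN1. Of the 2 other tested PIR genes, CIS3 fell by 0.40 (edgeR adjusted p = 0.0118), a call lost with library totals only, without depleted library 2 and without control library 3. PIR3 was at 3.89 to 24.1 CPM and was not called.

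**Figure D4:**
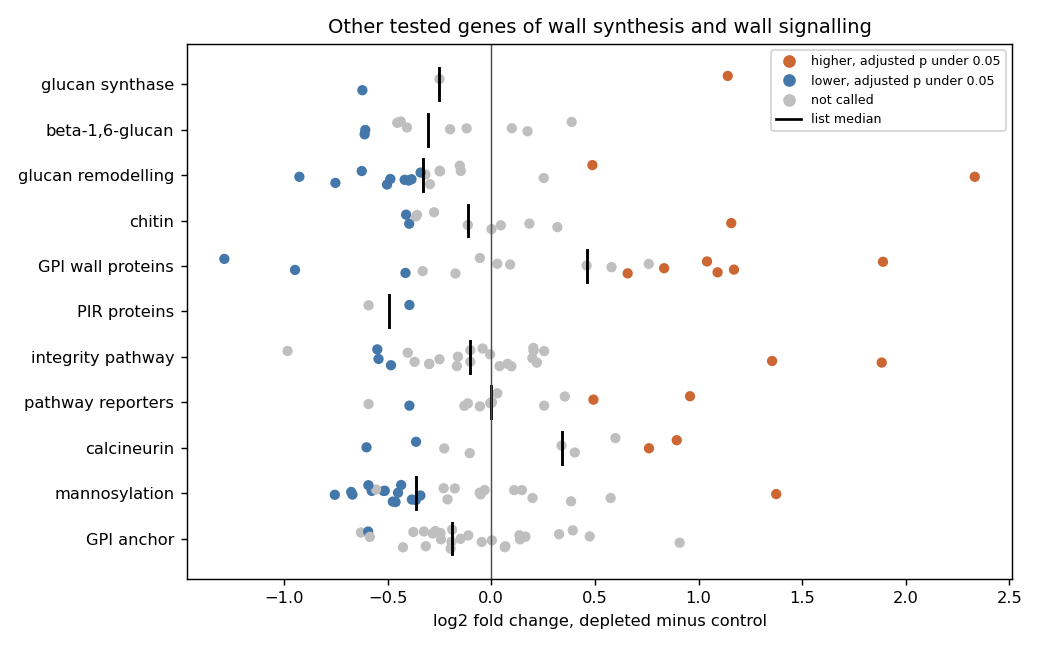
Log2 fold changes of the other tested wall genes by list (points; orange, higher; blue, lower; grey, not called; black bar, list median). Mannosylation genes lie mostly to the left, with 14 of 27 lower, and the integrity pathway and its reporters centre near 0 with the TMM scaling plotted (medians with library totals only, 0.21 and 0.31).

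Many genes that build the mannose side chains of wall proteins fell. Of 27 mannosylation genes, 14 fell and 1 rose, with a median of -0.36, beside a background of 14.1% of tested genes in each direction. SEC53, phosphomannomutase, fell by 0.76, the Golgi GDP-mannose transporter gene VRG4 by 0.68 and VAN1, a mannan polymerase subunit, by 0.67, whereas the mannosyltransferase gene KTR2 rose by 1.38. VRG4 lost its call without depleted library 2. By DESeq2 10 fell and 1 rose. Between 9 and 14 were lower when 1 library was left out, with 9 without depleted library 2. With library totals only 1 fell and 4 rose, with a median of -0.05. Of 27 tested GPI anchor genes, 1 fell, GPI17 of the transamidase complex (-0.59), and none rose, as with DESeq2, while 3 were lower and 2 higher at an unadjusted p under 0.05. GPI17 lost its call without control library 3, where none were lower, and 3 were lower without control library 1 and 2 without depleted library 3. Under library totals 4 of the 27 were higher and none lower, with a median of 0.13.

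Of 11 chitin genes, 1 rose and 2 fell, where 28.3% of all tested genes were called. CHS6, which helps export the main chitin synthase to the surface, rose by 1.16 on the log2 scale. CHS5, of the same exomer complex, fell by 0.41 and the septum synthase gene CHS2 by 0.40. CHS2 lost its call without depleted library 3 or control library 1 or 3. With library totals only 4 of the 11 were higher and none lower.

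Of 25 integrity pathway genes, 2 rose and 3 fell, where 28.3% of all tested genes were called. They were the GTPase-activating protein genes BAG7 (1.88) and SAC7 (-0.54), the MAP kinase phosphatase gene SDP1 (1.36), SWI4 (-0.55), the DNA-binding subunit of SBF, and the sensor gene MID2 (-0.48; named after its value was seen). BAG7 and SDP1 had a mean of 10.8 and 10.5 reads per library. With 3 to 7 and 4 to 9 control reads, both passed the filter on low counts only through the depleted libraries. At these control levels a fall could not have been called. SDP1 lost its call without depleted library 2 or control library 1 or 3, SAC7 without control library 3, and MID2 without depleted library 1 or control library 1 or 3. Scaled by library totals, 6 of the 25 were higher and none lower, with a median of 0.21.

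Of 13 genes used as reporters of Slt2 and Rlm1 activity, 2 rose and 1 fell, beside 14.1% of tested genes in each direction. Library totals gave 6 higher and none lower, and the median went from 0.001 to 0.31. CRG1 rose by 0.96 and the yapsin protease gene YPS3 by 0.49 (edgeR adjusted p = 0.0471), CIS3 fell, and DESeq2 called neither rise. YPS3 lost its call whichever library was left out, and CRG1 without depleted library 1 or any control library. The reporters KDX1 (-0.005), PST1 (-0.06) and PRM5 (0.35), named after their values were seen, were not called, nor was SLT2 itself (0.26 ± 0.13, edgeR adjusted p = 0.168). The groups overlapped in CPM for KDX1 and PST1. For PRM5 and SLT2 every depleted library was above every control, as for 20.6% of all tested genes. Their margins were narrow, 41.79 against 41.57 CPM for PRM5 and 164.53 against 164.45 CPM for SLT2.

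Of 9 tested calcineurin genes besides GSC2, 2 rose and 2 fell, where 28.3% of all tested genes were called. The 2 catalytic subunit genes moved oppositely, CNA1 up by 0.90 and CMP2 down by 0.60 on the log2 scale. The vacuolar calcium pump gene PMC1, a target of the factor Crz1, rose by 0.76, and the Golgi pump gene PMR1, which overlaps YGL168W in R64, fell by 0.36. CMP2 lost its call without control library 1, and PMR1 without depleted library 2 or control library 1 or 2. CRZ1 was not called (-0.10; named after its value was seen). With library totals only 3 of the 9 were higher and none lower, and CMP2 (-0.29) and PMR1 (-0.05) were not called.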

How the data were processed

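The authors deposited raw counts of reads per gene, 1 file per library, with 5 HTSeq summary rows that were left out. Per the labels' protocols, hot-phenol RNA was depleted of rRNA with Ribo-Zero Gold and made into ScriptSeq v2 libraries. The tools named, per the submitters' processing notes, are TopHat2 (2.0.8), HTSeq and DESeq, with the sacCer3 build; how each was run, including any strand option, is not given in the sources used here. Groups follow the protocol label. As no label names separate cultures, the spread behind the p-values may be partly technical.

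Locus tags of 6008 of 6692 rows matched RefSeq R64. Counts were tested on all genes with edgeR 4.0.16 in R 4.3.3 (TMM, filterByExpr with a minimum count of 10 and total of 15, glmQLFit, glmQLFTest), and the procedure was tested on simulated data. The SE is the size of the log2 fold change over the square root of F. Alternatives were RLE factors, library totals only, 2 filters, DESeq2 1.42.0, limma-voom (limma 3.58.1), glmTreat, removal of the YLR154 rows, a replicate block and leaving out each library. The 10 genes and the lists were chosen with earlier results of these data known. All 10 are described, and on each list up to 4 called genes with the largest change; the 3 genes most like GSC2 and SVS1 were taken by Pearson r. Depth was 683896 to 1671136 gene counts per library.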

Additional observations from a re-analysis of the deposited data

How the results depend on the processing

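The 1 higher and 5 lower wall genes were the same genes under RLE factors, no count filter, a mean of at least 50 counts, DESeq2, limma-voom, removal of the YLR154 rows and a replicate block. With library totals only, 2 were higher and 2 lower, and CWP1 (0.101), CRH1 (0.028) and HSP150 (0.226) changed sign. Tested against 1.5-fold by glmTreat, 0 were higher and 0 lower. Leaving out 1 library gave 1 higher and 4 to 6 lower. Over all genes (734 higher and 735 lower), library totals gave 1748 and 313 and glmTreat 204 and 190; leaving out 1 library gave 529 to 671 higher and 591 to 699 lower. Of the other wall genes (17 higher and 38 lower), 37 and 4 were called with library totals, 7 and 1 by glmTreat, 8 higher with a mean of at least 50 counts and 9 higher by DESeq2. Leaving out 1 library gave 11 to 14 higher and 24 to 39 lower, with the fewest lower without depleted library 2 or control library 3 (24 each). The FKS1 to GSC2 log2 ratio difference ran from -1.33 to -1.09, that of CWP1 to CWP2 from 0.13 to 0.65 and that of PIR1 to HSP150 from 0.14 to 0.30 when 1 library was left out. Causes of these shifts were not tested.

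No label says that the replicate numbers pair the libraries, and a check showed no sign of it. With 3 libraries per group, the check cannot exclude pairing. Deviations from the group means of same-numbered libraries correlated at -0.057, -0.001 and 0.077 over genes, and not every library matched its own number best. With the replicate block, 741 genes were higher and 756 lower, with 1 and 5 of the wall genes.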

Other observations

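Over the 6 libraries, the genes whose log2 CPM (with 0.5 added) was most like that of GSC2 were PLB2, a phospholipase B gene (Pearson r = 0.996), MGR3, a mitochondrial protease adaptor gene (0.995), and RPO21, the largest subunit of RNA polymerase II (0.991). Of all tested genes, 263 had an r above 0.9 with GSC2, and the points share 2 groups of 3 libraries. Those most like SVS1 were RIM1, a mitochondrial single-strand DNA binding protein gene (0.997), ARD1, an N-terminal acetyltransferase gene (0.995), and RPL4A, a ribosomal protein gene (0.990), with 406 genes above 0.9.

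In the 1000 bases before the start codon, the SBF motif CNCGAAA occurred for 8 of the 10 wall genes (all but PIR1 and HSP150) and for 34.1% of 6002 yeast genes. The Rlm1 motif (CTA and TAG separated by 4 bases) occurred for 5 of the 10 (GAS1, SED1, CWP1, GSC2 and HSP150) and for 17.0% of genes. The stress response element AGGGG occurred for 5 of the 10 against 55.0% of genes, the Crz1 motif for 2 against 16.2%, MBF for 2 against 8.51% and the Hsf1 element for 0 against 2.65%. Counts over 10 genes were not tested. Such windows often reach into neighbouring genes.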
